A study of Mus musculus with 4 samples.

Results

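Cytosolic ribosomal protein genes encode the protein components of the ribosome outside mitochondria: Rps genes those of the small subunit, Rpl genes those of the large subunit. Of the 32285 genes in the deposited files, 83 symbols had the form of such a gene or were Rpsa, Rplp0, Rplp1 or Rplp2. Of these, 80 had a unique molecular identifier (UMI, 1 per captured RNA molecule) in at least 1% of the 68260 cell barcodes, and these 80 genes, 32 of the small and 48 of the large subunit, are described here. They were thus chosen by name and by the share of barcodes with a UMI, which is no finding here. The 3 symbols outside were Rpl10l with no UMI, Rpl3l with a UMI in 0.0308% of barcodes and Rpl39l with a UMI in 0.0835%. The members nearest to the threshold were Rpl7l1 at 11.9%, Rps27l at 23.0% and Rpl22l1 at 44.0% of barcodes, and thresholds of 0.5% and 5% gave the same 80 genes.

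The libraries are 5′ single-cell RNA libraries (10x Genomics) of CD45+ cells, that is, immune cells, sorted from within the crypts of the mouse small intestine. Mice were fed a control diet (2 samples) or, by the titles, cystine, which is the disulfide of cysteine (2 samples); the sorting protocol calls this feed high in cysteine. The comparison asks how crypt immune cells differ between the diets. Only the titles separate the groups, as all 4 samples carry "Control" as their treatment; "Male" is entered as the genotype, and no strain, age or duration is given. Whether a sample is 1 mouse or a pool is not given, so a p-value rests on the spread among 4 libraries alone, which may be technical. Below, 4 values in a row stand for control replicate 1, control replicate 2, cystine replicate 1 and cystine replicate 2.

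Each ribosome holds 1 copy of nearly every ribosomal protein, the stalk proteins P1 and P2 being an exception, and cells make these proteins in step with each other and with ribosomal RNA. Most ribosomal protein mRNAs begin with a run of pyrimidines at the transcription start, the TOP element, through which mTORC1 and Larp1 set how actively the mRNA is translated. Naive and newly activated lymphocytes are known for a large share of ribosomal protein mRNA, whereas differentiated effector cells devote more of their mRNA to effector products such as granzymes. A share of UMIs is a share of all captured RNA molecules, among them mitochondrial RNA and nuclear RNA such as Malat1. It says nothing of how often the mRNAs were translated.

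Because the TOP element is what most of these mRNAs have in common, 4 start sites with a pyrimidine run and 2 without one are shown for members on which the results turn. Each line gives 20 bases before and 20 bases from the start site of RefSeq (build GRCm38.p6), 5′ to 3′ on the gene's strand; capitals mark a run of at least 6 pyrimidines with a base no more than 3 bases from the start.
Rpl31: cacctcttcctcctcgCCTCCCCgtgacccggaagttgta
Rpl13a: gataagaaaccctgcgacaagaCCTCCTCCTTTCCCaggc
Rps27: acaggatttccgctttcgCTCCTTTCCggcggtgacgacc
Rps6: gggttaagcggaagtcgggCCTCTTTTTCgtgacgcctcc
Rpl10: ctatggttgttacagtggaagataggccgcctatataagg
Rpl7l1: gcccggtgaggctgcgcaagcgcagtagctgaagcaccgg
The windows lie at chr1:39367831-39367870 on the plus strand (Rpl31), chr7:45128726-45128765 on the minus strand (Rpl13a), chr3:90213629-90213668 on the minus strand (Rps27), chr4:86857348-86857387 on the minus strand (Rps6), chrX:74270796-74270835 on the plus strand (Rpl10) and chr17:46782637-46782676 on the minus strand (Rpl7l1).

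RefSeq start sites were found for 60 of the 80 members. A pyrimidine run of at least 6 bases reached within 3 bases of the start in 27 of these 60 and in 19.3% of all 27025 genes with a start site; an annotated start farther from the true one can miss such a run, so its absence from a window says only that these letters are not there. The ETS-type motif CCGGAAG stood, on either strand, between 250 bases before and 50 bases after the start in 41.7% of the 60 members and in 9.93% of all genes. The YY1-type motif AAGATGGC stood there in 10.0% and 3.19%, and the TATAAA box in 11.7% and 15.7%. The letters CTTTCC stood there in 51.7% and 29.3%.

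The 4 samples held 27229695 to 31301936 UMIs. After removal of barcodes with few genes or much mitochondrial RNA and of likely doublets, 58749 cells remained (14563, 13483, 16324 and 14379), with medians of 1335, 1713, 1295 and 1487 UMIs per cell. Any pair of samples shared 335 to 454 cell barcodes. The clustering left the 80 members out and gave 21 clusters; the 12 classes and clusters with at least 30 cells in every sample are compared here. Cluster borders moved with the random seed and numerical settings of the clustering. The γδ or natural CD8αα T-like class made up 64.0% of cells. It joined clusters with Cd3e in at least 50% and Cd8b1 in under 10% of cells that took no other name. Cd8a had a UMI in 85.5% and Trdc in 40.5% of its cells. Its clusters led by Frmd5, AY036118 and Pde3b (6810, 3015 and 6512 cells) had no γδ or natural CD8αα marker among their 10 leading genes. A cluster led by Xcl1 and Tcf7 made up 11.9%, B-like cells 7.02% and a cluster led by Ms4a4b and Cd8b1 6.96%. The Xcl1- and Tcf7-led cluster also had Cd3e in 97.6% and Cd8b1 in 4.33% of cells, but was named by its leading genes. Cd8a had a UMI in 71.5% and Trdc in 33.99% of its cells. Plasmacytoid dendritic (pDC)-like cells made up 3.04%, and CD4 T-like cells 1.13%. Defining markers were present where the names say: Cd79a in 98.9% of B-like, Siglech in 97.8% of pDC-like and Lyz2 in 72.8% of monocyte or macrophage-like cells. Cd4, however, was found in only 25.8% of CD4 T-like cells. The Cd8b1 cluster was labelled by Cd8b1, found in 73.6% of its cells, beside Cd8a in 78.8%, Trdc in 4.77% and Cd4 in 3.03%. It was given no cell type name. Among its 10 leading genes stood Cd5, Cd6 and Il7r of the CD4 marker list and Cd8b1 and Gzmk of the CD8αβ list. Gzma, a granzyme of cytotoxic T cells, had a UMI in 64.7% of B-like cells but a level of 1270 CPM there (a gene's UMIs per 1000000 UMIs of the same cells in the same sample) against 42993 in the γδ or natural CD8αα class; the part of free RNA in the levels below was not tested.

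Over all kept cells, ribosomal protein mRNA made up 18.2, 18.4, 19.1 and 18.5% of UMIs in the 4 samples. The members themselves spanned a wide range. A UMI marks the 5′ end of 1 molecule, so levels in CPM are not divided by transcript length. The median member stood at 2153 CPM. Rps24, a small-subunit protein mutated in Diamond-Blackfan anaemia, was the highest with 7082, 6961, 7848 and 7235 CPM, and Rpl13 at 4819, Rps15a at 4417 and Rpl19 at 4344 CPM on average were among the 5 highest. The lowest were the paralogues Rpl7l1 with 65.9, 71.1, 82.3 and 79.2 CPM, Rps27l at 175 and Rpl22l1 at 409.6 CPM, then Rpl23a, which lines the peptide exit of the large subunit, at 414, and Rps25 at 496 CPM. Ribosomal protein genes have many near-identical processed pseudogenes, so differences in level between members can come from how reads that match several copies were counted, and are uncertain. UMIs under pseudogene symbols numbered 1638 to 2109 per sample.

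The share of ribosomal protein mRNA differed between cell classes, and was highest in B-like cells. It was low in the γδ or natural CD8αα T-like class and in a cluster led by Reg3b, and which of these 2 was lowest turned on a few cells. It was 28.9% ± 0.731 (SD, n = 4 samples) in B-like cells, with 28.9, 29.4, 27.9 and 29.5% in the samples. It was 15.6% ± 0.554 in the γδ or natural CD8αα T-like class, with 15.7, 16.3, 15.7 and 14.9%. No sample of either class came near the other class, and these are descriptions without a test, since the classes come from the same cells. Between them stood CD4 T-like cells at 25.5% ± 2.06, the Xcl1- and Tcf7-led cluster at 24.6% ± 0.874, the Cd8b1 cluster at 24.1% ± 1.43 and a cluster led by Ncr1, a receptor of natural killer cells, at 22.4% ± 1.29. The ranges of these 4 overlapped from each to the next, and none reached the lowest B-like sample. The Xcl1- and Tcf7-led cluster met the Cd3e and Cd8b1 limits of the γδ or natural CD8αα class. The low share thus describes that class without this cluster, and not all cells with such markers. pDC-like cells followed at 20.4% ± 0.374, a cycling T cluster led by Stmn1 and Pclaf at 19.5% ± 0.586, monocyte or macrophage-like cells at 19.0% ± 0.453, and an interferon-response T cluster led by Ifit1 at 17.5% ± 1.07. The cluster led by Ccl4 and Nr4a1, a gene induced by T cell receptor signals, was at 16.3% ± 0.652 and overlapped the γδ or natural CD8αα class. The Reg3b-led cluster, whose leading genes are those of enterocytes and in which Cd3e was still found in 67.4% of cells, stood at 14.4% ± 0.249, below every sample of the γδ or natural CD8αα class. This order rested on 66 of its cells, in which members held under 5% of UMIs (2.89% together) and which had a median of 8829.5 UMIs. Without such cells the Reg3b-led cluster was at 17.7, 18.0, 19.4 and 17.6%, above every sample of the γδ or natural CD8αα class at 15.9, 16.3, 15.9 and 15.1%. Counting intervals (95%, exact binomial) were at most 0.329 percentage points wide on each side in any sample of these 12, and cover counting error only.

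**Figure D1:**
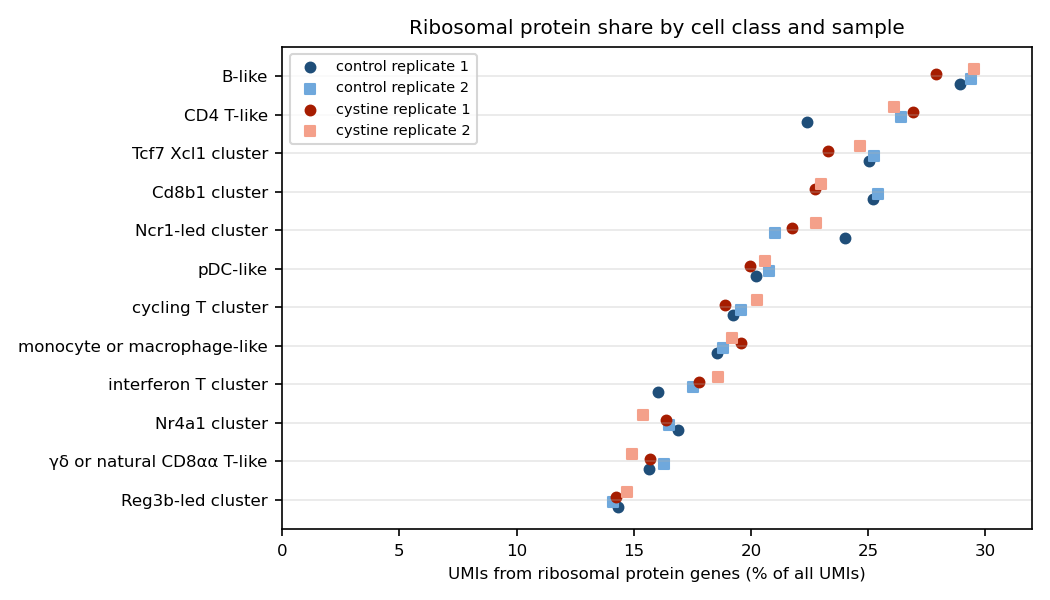
Percent of all UMIs that came from the 80 ribosomal protein genes, for 12 cell classes and clusters in each of the 4 samples (points; circles replicate 1, squares replicate 2, blue control, red cystine). B-like cells stand above all others in every sample, and in the Cd8b1 cluster both cystine samples (22.7 and 23.0%) lie below both controls (25.2 and 25.4%).

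At matched depth 6 of the classes and clusters kept the order given above. Among cells with 1000 to 2000 UMIs the share of ribosomal protein mRNA was 28.4% in B-like cells, 25.8% in CD4 T-like cells, 24.0% in the Xcl1- and Tcf7-led cluster, 23.8% in the Cd8b1 cluster, 19.3% in pDC-like cells and 15.7% in the γδ or natural CD8αα class. Others did not keep theirs: the Nr4a1 cluster, at 15.67%, no longer stood above the γδ or natural CD8αα class at 15.71%, and the interferon-response cluster at 16.85% stood above the cycling T cluster at 16.34% and monocyte or macrophage-like cells at 16.35%. With classes set by a cell's own marker UMIs in place of clusters, the γδ or natural CD8αα class held 17.4, 17.7, 16.9 and 17.0%, and B-like cells 28.8, 29.3, 27.7 and 29.6%. Single cells spread around these values: the middle 80% of cells ran from 10.9 to 19.98% in the γδ or natural CD8αα class and from 21.8 to 33.9% in B-like cells.

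**Figure D2:**
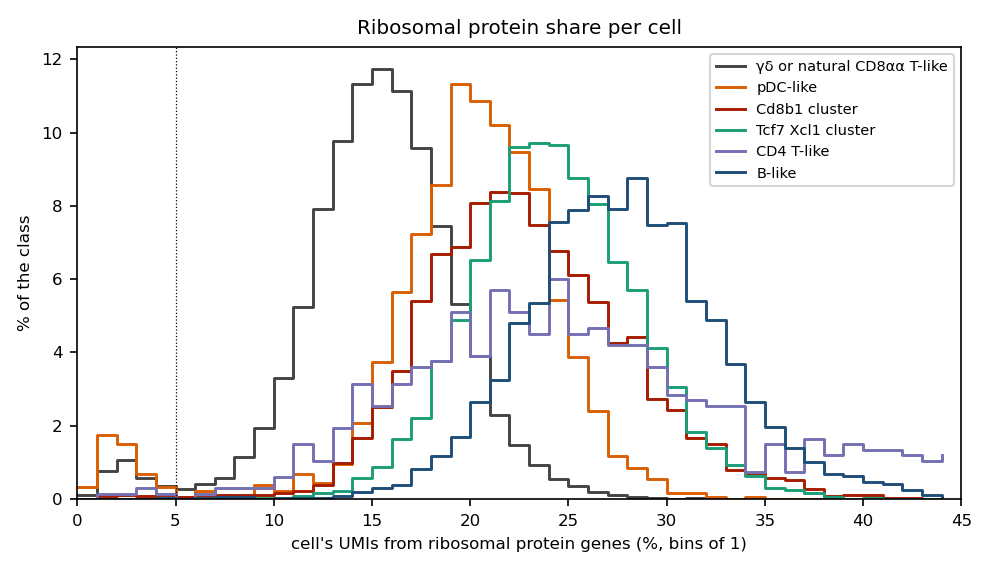
Distribution over cells of the percent of a cell's UMIs that came from ribosomal protein genes (x axis, bins of 1 percentage point; y axis, percent of the class), all samples together. The γδ or natural CD8αα class peaks left of all others and B-like cells right of them; the dotted line at 5% marks the separate group of cells with very low shares, most visible in pDC-like cells.

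A small separate group of cells held little ribosomal protein mRNA, 2.83% of their UMIs against 18.9% in the others. Under 5%, a line drawn after the distribution had been seen, lay 1494 of 58749 cells, and only 327 cells lay between 4 and 6%. They were 3.48, 0.564, 3.002 and 2.93% of the cells in the samples, so control replicate 2 had the fewest. Over all classes together, these cells had a median of 623 UMIs against 1461 in the others, 16942 against 9322 CPM of Malat1, a nuclear RNA, and 2.28 against 0.865% mitochondrial UMIs. They were 2.90% of the γδ or natural CD8αα class and 4.59% of pDC-like cells, 13.95% of the Reg3b-led cluster, and 1 of 4123 B-like cells. Outside the 12 classes and clusters compared, they were 28.5% of a cluster led by Bach2 (149 of 523 cells). There they were also 13.4% of plasma cell-like and 11.3% of mast-like cells. The leading genes of the Bach2-led cluster include the B cell markers Ebf1 and Pax5, and it had Cd79a in 33.3% and Cd3e in 67.5% of cells. The cells under 5% were not alike in all classes. In the γδ or natural CD8αα class they had medians of 601 against 1401 UMIs and 31257 against 11620 CPM of Malat1, but in the Reg3b-led cluster they had 8829.5 against 1899 UMIs and 2494 against 3979 CPM of Malat1. Without them the share over all cells was 18.6, 18.5, 19.5 and 18.9%.

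Gene groups with related roles ran in parallel to the members across the 21 clusters, given here as a description over clusters that share the same 4 libraries and the same total. The summed level of 20 translation factors and other TOP mRNAs, among them Eef1a1 and Tpt1, followed the share of members most closely (Pearson r 0.93, Spearman rho 0.94). For 45 ribosome biogenesis genes, which make and process ribosomal RNA and assemble subunits, r was 0.79 and rho 0.65. For 78 mitochondrial ribosomal protein genes r was 0.51 and rho 0.52, and for Malat1 r was -0.64 and rho -0.58. Median UMIs per cell showed an r of 0.12 and a rho of 0.28. Within B-like cells the mean share was 26.8% at 500 to 1000 UMIs and 32.3% from 2000 UMIs. In pDC-like cells these values were 6.20 and 20.6%. The other classes and clusters compared also held more in the deeper cells, except the Reg3b-led cluster at 15.1 and 14.2%.

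Nearly all members shared in the higher level of B-like cells. Set against the γδ or natural CD8αα class, 79 of 80 members were higher in B-like cells in all 4 samples, beside 21.8% of all 6793 genes compared, and none was lower in all 4, beside 57.1%. The median member was 0.85 higher on the log2 scale. The exception was Rps27l. In the next 4 classes and clusters no member was lower in all 4 samples either, beside 43.8, 41.6, 25.2 and 34.6% of genes in the order given. In the Xcl1- and Tcf7-led cluster 80 of 80 members were higher in 4 of 4 samples (31.8% of all genes), in the Cd8b1 cluster 79 (25.3%), in the Ncr1-led cluster 78 (15.2%) and in CD4 T-like cells 77 (21.7%). The medians on the log2 scale were 0.63, 0.59, 0.50 and 0.68. Myeloid and pDC-like cells were more mixed: 66 members were higher and 9 lower in 4 of 4 samples in pDC-like cells, where 29.5% of all genes were higher and 51.9% lower, and 65 were higher and 10 lower in monocyte or macrophage-like cells, where 24.4% were higher and 49.1% lower. In the cycling T cluster 66 members were higher (24.0% of all genes) and 3 lower (38.2%). In the interferon-response cluster 34 were higher (7.98%) and 4 lower (15.9%), and in the Nr4a1 cluster 30 were higher (11.3%) and 3 lower (26.2%). The Reg3b-led cluster had 26 members higher (26.9%) and 38 lower (56.1%). B-like cells held the highest mean level of 59 of the 80 members, and the Reg3b-led cluster the lowest of 42. The levels of the latter include its 66 cells under 5%, and were not recomputed without them.

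**Figure D3:**
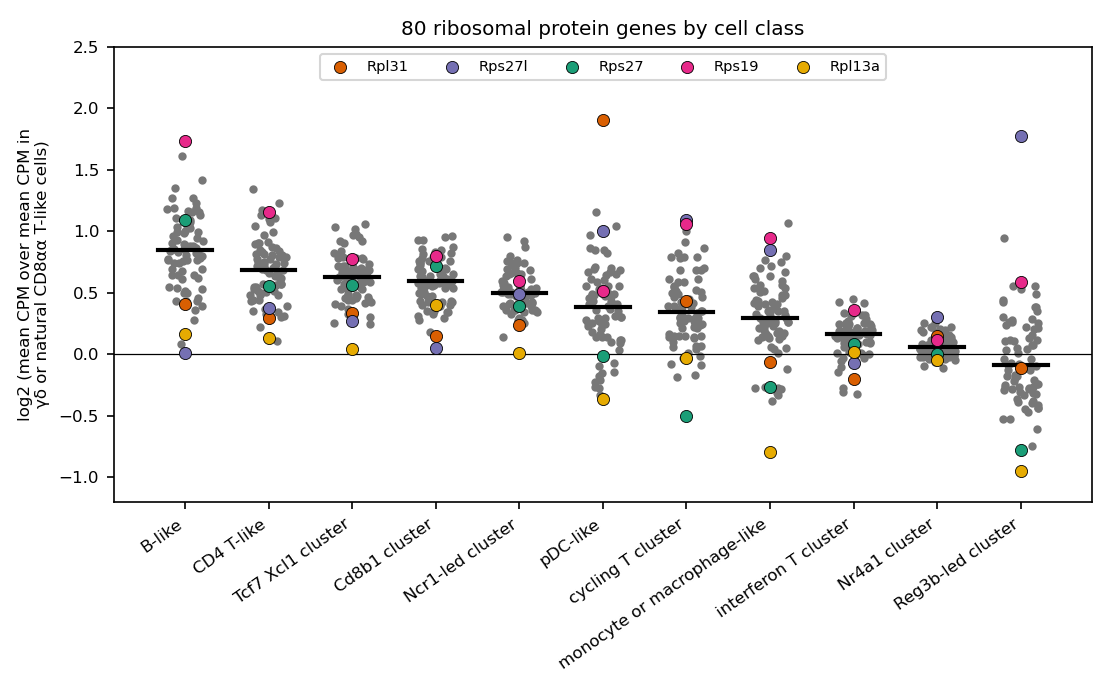
Log2 of a member's mean CPM over its mean CPM in the γδ or natural CD8αα T-like class, 1 point per member and cell class (80 members; black bars are medians), with 5 members in colour. Rpl31 stands alone at the top of pDC-like cells (3.75-fold) and Rps27l at the top of the Reg3b-led cluster (3.43-fold). Rpl13a is the lowest member in pDC-like cells, in monocyte or macrophage-like cells and in the Reg3b-led cluster.

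Between the highest and the lowest class the median member differed 2.13-fold in mean level, and 51 of 80 differed by at least 2-fold. The widest range was that of Rpl31, a large-subunit protein beside the exit of the nascent peptide. In pDC-like cells Rpl31 stood at 2157, 2321, 2038 and 2282 CPM, and in the γδ or natural CD8αα class at 603, 584, 570 and 591 CPM, a 3.75-fold difference of the means. Among the other 10 classes and clusters its mean lay between 510 CPM in the interferon-response cluster and 794 CPM in the cycling T cluster, so that only pDC-like cells stood apart, in every sample. With pDC-like cells set by their own marker UMIs, Rpl31 was at 2228, 2402, 2118 and 2341 CPM.

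Other members of the large subunit each had a pattern of their own. Rpl10, an X-linked protein that joins the large subunit at the end of its assembly, was also highest in pDC-like cells, at 3508, 3481, 3350 and 3314 CPM against 1513, 1696, 1512 and 1415 in the γδ or natural CD8αα class. The highest sample of the latter stood far below the lowest pDC-like sample, and the means differed 2.23-fold. Rpl13a, known for its release from the ribosome in interferon-γ-treated myeloid cells, went the other way: it was at 1642, 1593, 1493 and 1295 CPM in monocyte or macrophage-like cells and at 2789, 2626, 2617 and 2440 CPM in the γδ or natural CD8αα class. Its highest class was the Cd8b1 cluster at 3452 CPM and its lowest the Reg3b-led cluster at 1356 CPM. Rpl38, the gene mutated in tail-short mice, ranged from 1385 CPM in the Reg3b-led cluster to 2708 CPM in the Xcl1- and Tcf7-led cluster, where it was at 2562, 3172, 2093 and 3004 CPM. Both samples numbered 2 stood above both numbered 1, a spread larger than that between many classes. Rpl39, a very small protein in the exit tunnel, ranged from 1414 CPM in the Reg3b-led cluster to 3133 CPM in B-like cells. Rpl3, which forms part of the catalytic centre, had one of the smallest ranges, from 1060 CPM in the γδ or natural CD8αα class to 1713 CPM in B-like cells, and that of Rpl41, the smallest ribosomal protein, was smaller still, from 3794 to 5555 CPM in the cycling T cluster.

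Of the 8 members with the largest range between classes, 6 belong to the small subunit. Rps19, the gene most often mutated in Diamond-Blackfan anaemia, was at 2985, 2988, 2970 and 3125 CPM in B-like cells and at 930, 853, 947 and 898 CPM in the γδ or natural CD8αα class, a 3.33-fold difference. The next class, CD4 T-like cells, reached 2024 CPM ± 226. Rps20 was at 8669, 8705, 8637 and 8886 CPM in B-like cells and at 2894, 2768, 2984 and 2757 in the γδ or natural CD8αα class. Rps24 ranged from 4255 CPM in the Reg3b-led cluster to 13240 CPM in B-like cells. B-like cells thus held the highest level of all 3, with samples that lay close together. Rps15a differed: its highest class was the Xcl1- and Tcf7-led cluster at 6535 CPM ± 424, and in pDC-like cells it stood at 3137 CPM ± 152, below the γδ or natural CD8αα class at 3935. Rpsa, known also as a laminin receptor, was at 7399 CPM ± 143 in B-like and 7203 ± 1110 in CD4 T-like cells against 3068 ± 190 in the γδ or natural CD8αα class. Rps6, the substrate of the S6 kinases, was highest in the cycling T cluster at 1123, 1189, 928 and 1309 CPM, and at 624 CPM ± 22.5 in the γδ or natural CD8αα class. Rps4x, an X-linked protein of the subunit's body, was at 5642 CPM ± 71.9 in B-like cells and 2807 ± 103 in the γδ or natural CD8αα class. Rps14 and Rps12 had small ranges: Rps14 ran from 1503 to 2338 CPM in CD4 T-like cells, and Rps12 from 1528 CPM in the interferon-response cluster to 2445 CPM in B-like cells.

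The paralogue pairs Rps27 with Rps27l and Rpl22 with Rpl22l1 peaked in different classes. Rps27, a zinc-finger protein of the small subunit, was at 2914, 3851, 2645 and 3624 CPM in B-like cells, and at 1416, 1812, 1286 and 1597 CPM in the γδ or natural CD8αα class. The lowest B-like sample stood above the highest sample of that class, and samples numbered 2 above those numbered 1 in both. Its paralogue Rps27l, a target of p53, was at 154, 160, 139 and 137 CPM in B-like cells and 129, 152, 155 and 150 CPM in the γδ or natural CD8αα class, which overlap. Rps27l was instead highest in the Reg3b-led cluster, at 490, 576, 460 and 488 CPM, followed by the cycling T cluster at 312 CPM ± 25.0, pDC-like cells at 294 ± 30.7 and monocyte or macrophage-like cells at 264 ± 27.5. In the Reg3b-led cluster the 10 enterocyte markers together reached 56038 to 91940 CPM, against 132 to 387 CPM in the γδ or natural CD8αα class; their part in the level of Rps27l was not tested. Rps27 was lowest there, at 893 CPM, and next lowest in the cycling T cluster at 1079 CPM.

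Rpl22, without which αβ T cells fail to develop, was highest in B-like cells at 2474 CPM ± 188 and lowest in the Reg3b-led cluster at 1225 ± 52.8. Its paralogue Rpl22l1, which Rpl22 represses, was highest in the Xcl1- and Tcf7-led cluster at 562, 586, 536 and 579 CPM, and lowest in monocyte or macrophage-like cells at 272, 303, 317 and 282 CPM. Rpl7l1, a paralogue of Rpl7, was highest in B-like cells at 120 CPM ± 5.78 and lowest in the Reg3b-led cluster at 57.3 ± 14.9. The stalk proteins, which call translation factors to the ribosome, were unlike each other as well. Rplp0, the base of the stalk, was highest in CD4 T-like cells at 4944 CPM ± 407, with 4096 ± 319 in monocyte or macrophage-like cells and 1950 ± 103 in the γδ or natural CD8αα class. Rplp1 was highest in the Cd8b1 cluster at 4481 CPM ± 380 and lowest in monocyte or macrophage-like cells at 2453 ± 196, with B-like cells at only 3272 ± 148. Rplp2 ranged from 1669 CPM in the Reg3b-led cluster to 2996 in B-like cells.

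**Figure D4:**
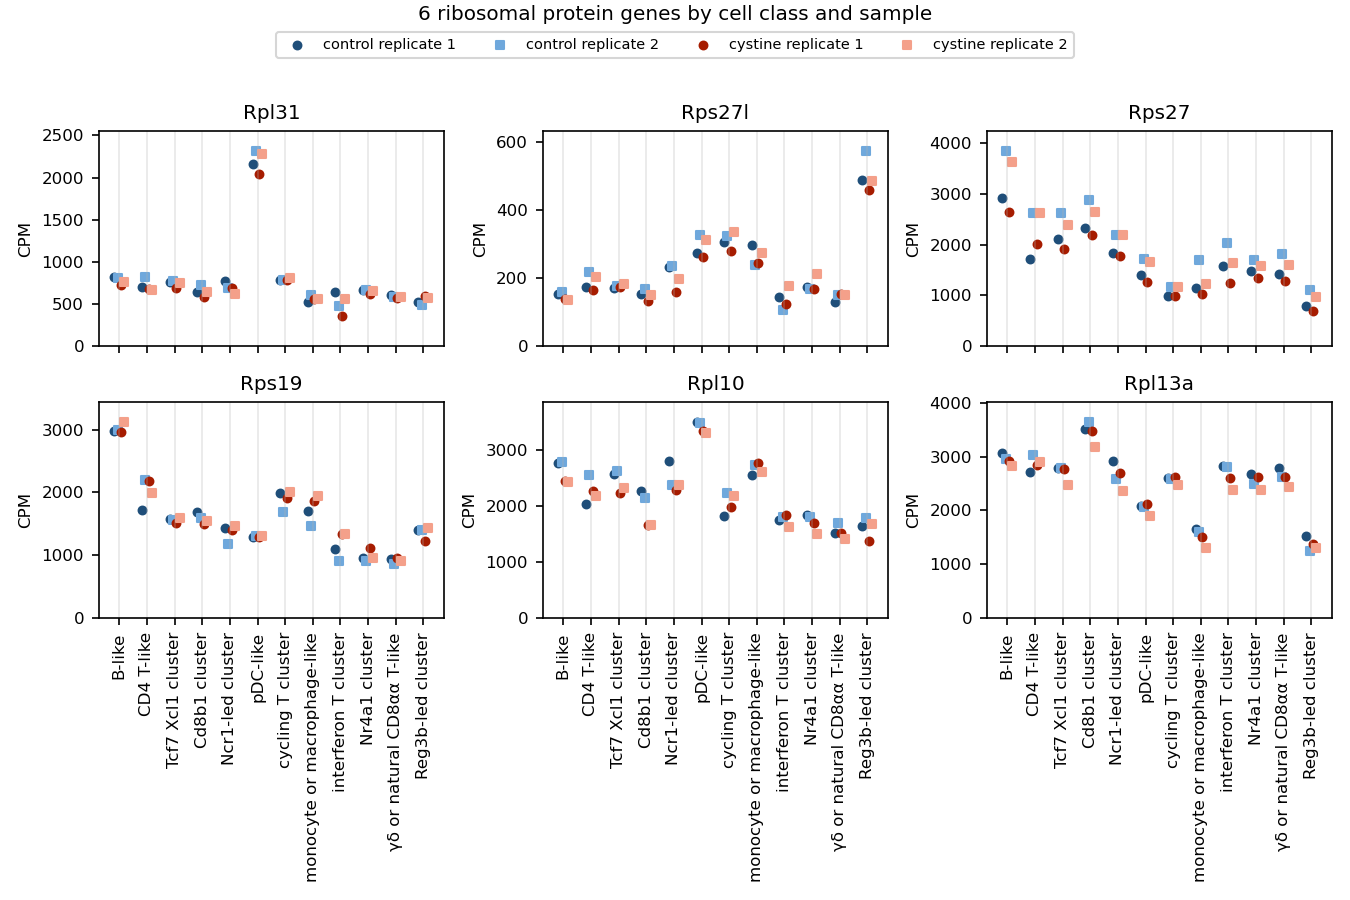
CPM of 6 members in each cell class and sample (points; circles replicate 1, squares replicate 2, blue control, red cystine; each y axis starts at 0). Rpl31 and Rpl10 peak in pDC-like cells, Rps27l in the Reg3b-led cluster, and Rps27 and Rps19 in B-like cells, and for Rps27 samples numbered 2 stand above those numbered 1 in every class shown.

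Taking each member as a percent of the members' UMIs removes the total and leaves the makeup of the pool. Most members kept nearly the same part of it: the median ratio between the highest and the lowest class was 0.56 on the log2 scale, and 7 of 80 differed by at least 2-fold. Rps27l ranged most, from 0.0510% of the pool in B-like cells to 0.351% in the Reg3b-led cluster. Rpl31 was 1.08% of the pool in pDC-like cells (1.02 to 1.12% over samples) and 0.269% in B-like cells (0.256 to 0.285%). Rpl13a was 1.67% in the γδ or natural CD8αα class and 0.792% in monocyte or macrophage-like cells. Rpl10 was 1.67% in pDC-like cells and 0.797% in the Cd8b1 cluster, and Rps27 was 1.12% in B-like cells and 0.553% in the cycling T cluster. Rpl22l1 and Rps2 were the remaining members with such a range, both with the highest part in the Reg3b-led cluster. Rpl13 varied least, between 2.37% in pDC-like cells and 2.71% in the interferon-response cluster. Small-subunit members together made up 44.7% of the pool over all cells, 46.8% in B-like cells and 43.3% in the Reg3b-led cluster.

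The diet comparison used the same sums per sample. Over all kept cells no member was called different between the cystine and the control diet: 0 of 80 passed an adjusted p of 0.05 in edgeR's quasi-likelihood test with Benjamini-Hochberg adjustment over 14076 genes, of which 0% were called lower and 0.149% higher. DESeq2 also called 0, and no member was under an unadjusted p of 0.05, beside 2.5% of genes lower and 7.0% higher. The median log2 difference of the members, cystine over control, was -0.01, beside 0.00 for all genes, and 44 of 80 were below 0, as were 49.6% of all genes; without TMM scaling the median was 0.04 and 25 were below 0. Both cystine samples were below both controls for 6 members, beside 17.3% of genes, and above for 9, beside 20.4%. In CPM after TMM scaling, the scale of every diet value from here on, Rps19 was at 1157, 1150, 1387 and 1261, the highest log2 difference of any member with 0.20 (SE 0.124, adjusted p = 0.74), and the cystine samples stood above the controls. Rps2 (0.20) and Rpl7l1 (0.19) followed. Rps21 was at 2014, 2757, 1847 and 2245, the lowest with -0.22 (SE 0.194, adjusted p = 0.87), and its groups overlapped. Rps15a (-0.22) and Rpl38 (-0.20) were next. The share of member UMIs was 0.521 percentage points higher in the cystine mean (exact permutation test, two-sided, p = 0.333, the smallest that 2 against 2 samples can give). It ranged from 0.238 to 0.803 percentage points with 1 sample left out. The median log2 difference was -0.05 when replicate 1 of either diet was left out. It was 0.06 when control replicate 2 was left out and 0.03 when cystine replicate 2 was. Cell composition differed between the samples, with 388, 313, 2508 and 914 B-like cells, so the diets were also compared within classes.

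In the Cd8b1 cluster 7 of 80 members were lower in the cystine samples past the threshold and none higher, beside 0.798% of 8526 genes lower and 0.281% higher. At an unadjusted p under 0.05, 64 were lower, beside 6.18% of genes, and 0 higher, beside 4.43%. All 80 had a log2 difference below 0 (79 without TMM scaling), beside 49.7% of genes, with a median of -0.22 against 0.00 over all genes, and 71 of 80 had both cystine samples below both controls, beside 20.7% of genes; none had both above, beside 21.4%. Rpl10 was at 2323, 2248, 1602 and 1650, and its log2 difference was -0.49 (SE 0.0767, edgeR adjusted p = 0.0045). Both cystine samples lay far below both controls. Rps12 was at 2326, 2404, 1794 and 1846, a log2 difference of -0.38 (SE 0.0758, edgeR adjusted p = 0.029). Rpl28 was at 2729, 2812, 2066 and 2233, Rps26, which lies where the mRNA leaves the ribosome, at 3452, 3336, 2494 and 2827, Rpl22 at 2354, 2322, 1792 and 1896, and Rpl32 at 4079, 3838, 3061 and 3242. Their log2 differences lay between -0.37 and -0.33, with edgeR adjusted p-values of 0.034 to 0.0496, just inside the threshold. Only Rpl10 passed in each of 19 other ways of processing the data (log2 difference -0.52 to -0.41, adjusted p 5.39e-06 to 0.0444), whereas Rps12 passed in 11 of 19, Rpl28 in 7, Rpl32 in 6, Rpl22 in 5 and Rps26 in 4; all 6 stayed below 0 in all 19. Leaving out control replicate 2 left 2 members called, and leaving out cystine replicate 1 left 3. Without cystine replicate 2 there were 26, and DESeq2's Wald test called 1.

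The share of UMIs from members in the Cd8b1 cluster was 25.2, 25.4, 22.7 and 23.0%, a difference of -2.47 percentage points between the diet means (exact permutation test, two-sided, p = 0.333, the smallest possible). Both cystine samples were below both controls, also with cells set by their own Cd8b1 and other marker UMIs, at 23.9, 24.1, 22.1 and 22.6%. Among cells with 1000 to 2000 UMIs it was 25.1, 25.1, 22.6 and 22.6%, and from 2000 UMIs it was 26.8, 26.1, 24.4 and 24.6%. Among the 870 cells with 500 to 1000 UMIs it was 20.97, 21.5, 22.01 and 20.2%, so there the groups overlapped. Other features of the cluster moved with the diet: it held 522, 416, 1647 and 1506 cells. Gzmk, a granzyme of memory-type CD8 T cells, was at 237, 369, 1131 and 952 CPM, Tcf7, a factor of naive and stem-like T cells, at 142, 162, 68.4 and 74.1 CPM, and Cd7 at 2577, 2391, 901 and 1371 CPM. The 7 naive T markers together were at 195 to 248 CPM in the controls and 127 to 165 in the cystine samples, with 2 of 7 lower and 1 of 7 higher in both cystine samples. The 10 Paneth cell markers together were at 2.45 to 2.68 CPM in the controls and 532 to 1117 CPM in the cystine samples, with 10 of 10 higher in both cystine samples, and only Defa24 and Defa30 above 0 in a control. This rise was not particular to the cluster: the list was at 4.34 to 11.3 CPM in the controls and 530 to 1090 CPM in the cystine samples of the γδ or natural CD8αα class, and at 0 to 8.12 and 657 to 1288 CPM in B-like cells, where no member was called. The part of each of these in the lower member levels was not tested. A change in the mix of cells within the cluster and a change within cells cannot be told apart in sums over cells.

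Outside the family, Eef1a1 and Tpt1 were also lower in the cystine samples of the Cd8b1 cluster. Eef1a1, the elongation factor that brings tRNAs to the ribosome, was at 8126, 8733, 6750 and 6762 (log2 difference -0.32, SE 0.0652, edgeR adjusted p = 0.030), and Tpt1, another TOP mRNA, at 3779, 4029, 3054 and 3108 (-0.34, SE 0.0715, edgeR adjusted p = 0.034). These were 2 of the 20 genes of the list of translation factors and other TOP mRNAs, whose median was -0.13 and of which 15 were below 0. None of 45 ribosome biogenesis genes passed, and their median was 0.20 with 11 below 0, so the medians of these lists had opposite signs. None of 78 mitochondrial ribosomal protein genes (median -0.03), 16 genes that control the translation of ribosomal mRNAs, such as Mtor and Larp1 (-0.04), or 4 further ribosome constituents, among them Rack1 and Fau (-0.18), passed.

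In the γδ or natural CD8αα T-like class 0 of 80 members passed (edgeR, 11984 genes, of which 0.0584% were called lower and 0.192% higher; DESeq2 also called 0). None was under an unadjusted p of 0.05, beside 2.34% of genes lower and 3.65% higher. Of the log2 differences, 77 of 80 were below 0, beside 49.2% of genes, with a median of -0.15, and 24 of 80 had both cystine samples below both controls, beside 15.9% of genes, and none above, beside 16.9%. All members share the same 4 libraries, so such counts are not separate observations. The members' mean log2 level had an SD of 0.114 between samples of a diet, pooled over the diets. This SD was 0.048 in the Cd8b1 cluster, 0.082 in the Xcl1- and Tcf7-led cluster, 0.088 in B-like and 0.162 in CD4 T-like cells. Rpl39 was at 1530, 2256, 1399 and 1558, a log2 difference of -0.36 (SE 0.206, edgeR adjusted p = 0.94), and control replicate 2 stood apart while the other 3 samples overlapped. Rps15a (-0.36) and Rpl23a (-0.34) followed, and Rpl7l1 (0.05), Rps2 (0.02) and Rps27l (0.02) had the highest values. Without control replicate 1 the median was -0.24 with 80 below 0. Without control replicate 2 the median was -0.05 with 63 below 0, and without cystine replicate 2 it was -0.09 with 70 below 0. Without TMM scaling 61 of 80 were below 0 and the median was -0.05.

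The difference of the diet effect between the Cd8b1 cluster and the γδ or natural CD8αα class was tested as an interaction term, each sample being its own block. No member passed (edgeR, 0 of 80; 0.818% of 11731 genes passed; none under an unadjusted p of 0.05), and the median log2 difference of the effects was -0.07, beside 0.04 for all genes. For Rpl10 it was -0.25 (SE 0.151, edgeR adjusted p = 0.77). The lower levels were thus not shown to be particular to the Cd8b1 cluster. The same test of B-like cells against the γδ or natural CD8αα class called 0 of 80 as well (1.01% of 12156 genes passed), with a median of 0.18 beside 0.13.

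In the Xcl1- and Tcf7-led cluster 0 of 80 passed (edgeR, 9992 genes, of which 0.05% were called lower and 0.170% higher; DESeq2 called 0). At an unadjusted p under 0.05, 4 members were lower, beside 3.38% of genes, and 0 higher, beside 3.94%. In all, 76 were below 0 beside 50.4% of genes, and the median was -0.11; 42 had both cystine samples below both controls, beside 19.0% of genes, and 1 above, beside 18.8%. Rpl23a was at 627, 604, 521 and 516 (log2 difference -0.25, SE 0.0885, edgeR adjusted p = 0.56) and Rps12 at 2331, 2335, 1896 and 2043 (-0.24, SE 0.0832, edgeR adjusted p = 0.53); in both, the cystine samples were below the controls. Rps21 was at -0.23, and the highest were Rpl7l1 (0.17), Rpl8 (0.01) and Rpl14 (0.00). The median log2 difference of the members was -0.11 without control replicate 1 and -0.09 without control replicate 2. The share of member UMIs was 25.0, 25.3, 23.3 and 24.6%, lower in both cystine samples by 1.17 percentage points on average (exact permutation test, two-sided, p = 0.333). The difference was -0.50 percentage points without cystine replicate 1 and -1.84 without cystine replicate 2. The median log2 difference was -0.02 without cystine replicate 1, with 53 members below 0, and -0.16 without cystine replicate 2.

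In B-like cells 0 of 80 passed (edgeR, 7019 genes, of which 0.0142% were called lower and 0.0427% higher; DESeq2 called 0). At an unadjusted p under 0.05, 1 member was lower, beside 2.32% of genes, and 0 higher, beside 2.61%. The log2 differences had 68 members below 0, beside 50.1% of genes, and a median of -0.05. Both cystine samples lay below both controls for 15 members, beside 17.4% of genes, and above for 3, beside 18.1%. Rpl10 was at 2830, 2901, 2411 and 2511 (log2 difference -0.22, SE 0.0851, edgeR adjusted p = 0.97), so that both cystine samples again lay below both controls. Rps27l (-0.22) and Rps21 (-0.22) were as low, and Rpl3 (0.09), Rplp0 (0.09) and Rpl35 (0.06) the highest. Without cystine replicate 1 the median turned to 0.01 with 33 below 0. Without cystine replicate 2 it was -0.10 with 74 below 0. Without TMM scaling 46 of 80 were below 0.

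pDC-like cells had 0 of 80 past the threshold (edgeR, 7977 genes, of which 0.0251% were called lower and 0.0627% higher; DESeq2 called 0). None was under an unadjusted p of 0.05, beside 2.13% of genes lower and 2.39% higher. The log2 differences had 56 below 0, beside 50.5% of genes, and a median of -0.03. The sign of this median turned on single samples: it was 0.01 with 37 below 0 without control replicate 2, and 0.03 with 25 below 0 without cystine replicate 1. Both cystine samples lay below both controls for 19 members, beside 16.9% of genes, and above for 7, beside 17.0%. Rpl23a was lowest at 472, 452, 415 and 381 (log2 difference -0.22, SE 0.118, edgeR adjusted p = 0.99), with Rps12 (-0.18) and Rpl7a (-0.18) after it, and Rplp0 (0.10), Rps10 (0.08) and Rpl3 (0.07) highest.

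CD4 T-like and monocyte or macrophage-like cells had medians above 0, though in CD4 T-like cells not without control replicate 1. In CD4 T-like cells, with 109 to 192 cells per sample, 0 of 80 passed (edgeR, 4665 genes, of which 0% were called lower and 0.193% higher; DESeq2 called 0). None was under an unadjusted p of 0.05, beside 3.73% of genes lower and 3.43% higher. In all, 15 were below 0, beside 49.4% of genes, and the median was 0.11. Without control replicate 1 it was -0.06 with 52 below 0, and without control replicate 2 it was 0.29 with 2 below 0. Both cystine samples lay above both controls for 18 members, beside 18.1% of genes, and below for none, beside 18.6%. Rpl7l1 was at 93.0, 77.2, 103 and 115 (log2 difference 0.34, SE 0.276, edgeR adjusted p = 0.88), followed by Rpsa (0.33) and Rpl21 (0.29), while Rpl5 (-0.26), Rpl31 (-0.15) and Rpl23a (-0.13) were lowest. The CD4 T-like share of member UMIs was 22.4, 26.4, 26.9 and 26.1%, so control replicate 1 stood apart and the groups overlapped. In monocyte or macrophage-like cells 0 of 80 passed (edgeR, 5192 genes, of which 0.732% were called lower and 0.366% higher; DESeq2 called 0). At an unadjusted p under 0.05, 4 members were higher, beside 4.66% of genes, and 0 lower, beside 5.91%. In all, 24 were below 0, beside 50.8% of genes, and the median was 0.08. Both cystine samples lay above both controls for 28 members, beside 19.5% of genes, and below for 3, beside 20.9%. Rpl7l1 was at 76.6, 81.0, 109 and 116 (log2 difference 0.51, SE 0.261, edgeR adjusted p = 0.55), with both cystine samples above both controls. Rps18 (0.32) and Rpsa (0.31) followed, and Rps27 (-0.34), Rps21 (-0.22) and Rpl13a (-0.20) were lowest. With 1 sample left out, the median in monocyte or macrophage-like cells ranged from 0.05 to 0.14. Across the fits, ribosome biogenesis genes had a median log2 difference between 0.01 in CD4 T-like and 0.31 in the γδ or natural CD8αα class, and none of the 33 to 45 tested passed in any fit.

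**Figure D5:**
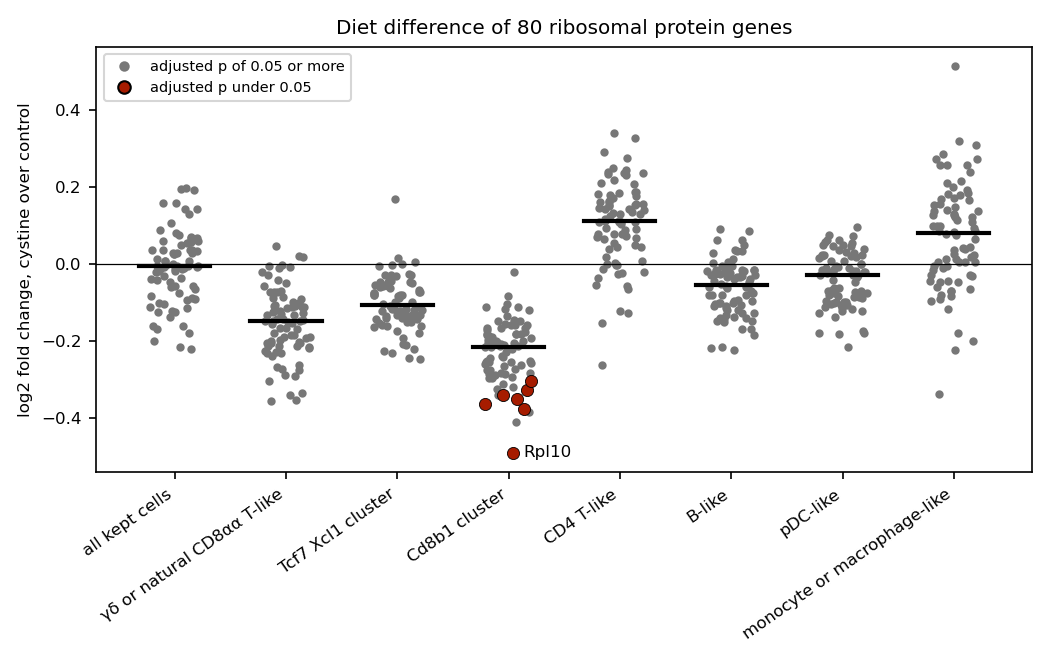
Log2 difference between the cystine and the control diet for each of the 80 members, over all kept cells and in 7 classes and clusters (1 point per member and fit; black bars are medians; red points passed an adjusted p of 0.05 in edgeR's quasi-likelihood test). All points of the Cd8b1 cluster lie below 0, its 7 red points include Rpl10 at -0.49, and no other fit has a red point.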

How the data were processed

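RNA of CD45+ cells from 4 samples was measured, and raw UMI counts per gene and barcode were used as deposited by the authors; per the submitters' processing notes the tools were Cell Ranger 3.1.0 and Seurat 4.0.1 and the build GRCm39, whereas per the file headers Cell Ranger was 7.0.1. How reads matching several copies of a gene were counted is not given in the sources used here.

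A barcode needed 300 detected genes and no more than 10% of its UMIs from mitochondrial genes; likely doublets (Scrublet, 0.8% per 1000 barcodes, 9338 in all) were removed. Cells were clustered with scanpy 1.11.5 (2000 variable genes without the members, 30 components, 15 neighbours, Leiden resolution 1). Clusters were named from marker lists and from the share of cells with Cd3e and Cd8b1. UMIs were summed per sample and class and tested with edgeR 4.0.16 (quasi-likelihood test, filterByExpr, TMM scaling, R 4.3.3), with Benjamini-Hochberg adjustment over all genes tested; all 80 members passed the filter in every fit. The SE given with a log2 difference was derived from the test, as its absolute value over the square root of the F statistic. Shares were compared by exact permutation. The planned fit of CD8αβ T-like cells was made on the Cd8b1 cluster, which was labelled by Cd8b1 and not given that name. The scripts were tested on simulated data.

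The members and gene lists were chosen with earlier results of these data known. Named were the 5 highest and 5 lowest members, the 8 with the largest and the 4 with the smallest range across classes, in each diet fit up to 6 called in each direction or else the 3 lowest and 3 highest, and paralogues, stalk proteins and a few others fixed by name. A few genes that this rule names are not reported here. The other features of the Cd8b1 cluster (Gzmk, Tcf7, Cd7) were named after their values were seen. The alternatives were other scalings, DESeq2 1.42.0, no low-count filter, a replicate block, leaving out each sample, other cell filters, doublets kept, resolution 0.5, classes by a cell's own UMIs and thinning to 1000 UMIs. Leaving out cells over 2% Malat1, other random seeds and the separate fit of the Xcl1- and Tcf7-led cluster were chosen after seeing the data.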

Additional observations from a re-analysis of the deposited data

Results flagged for a closer look

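The difference in the share of ribosomal protein mRNA between the diets went opposite ways in different classes, with both cystine samples on one side of both controls. It was -2.4653 percentage points in the Cd8b1 cluster, -1.17 in the Xcl1- and Tcf7-led cluster and -0.836 in the Nr4a1 cluster, where both cystine samples were lower. It was 1.4103 percentage points in the interferon-response T cluster (157 cells) and 0.7148 in monocyte or macrophage-like cells, where both were higher. Among cells with 1000 to 2000 UMIs the diets overlapped in both of the latter, but not in the clusters with lower shares. The interferon-response cluster then held 16.59, 15.98, 16.15 and 18.68%, from 18, 37, 22 and 11 cells. From 2000 UMIs the diets overlapped in the interferon-response and Nr4a1 clusters only. Full separation of 2 against 2 samples has a p of 0.333 (exact permutation test, two-sided), and 12 classes and clusters were compared. The difference between these classes was not tested.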

How the results depend on the processing

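Over the alternatives tried, 251 of the counts of called members and share differences, each under 1 setting, stayed within 1.5 times the count or within the spread between samples (1 SD), and 29 moved further. With 1 sample left out, a share difference could not leave that spread, because the spread came from the same 2 samples per diet. Those settings among the 251 are thus no measure of stability. With 1 sample left out, share differences ranged from 0.115 to 4.11 percentage points in CD4 T-like cells. They could also change sign, with ranges from -1.24 to 0.380 in B-like and -0.539 to 0.142 percentage points in pDC-like cells. The count of members called in the Cd8b1 cluster, 7, was 1 with library totals, with DESeq2's Wald test, with the stricter cell filter, at resolution 0.5, with thinning and with seeds 2 and 4. It was 2 with classes by own UMIs and with seed 3, 3 with doublets kept and with cells over 2% Malat1 left out, and 17 without the low-count filter. Of all genes, 68 of 8526 were called lower in the main fit and 133 of 15020 without the low-count filter. Between 20 and 73 genes were called lower where 1 member was, and 42 to 60 where 2 or 3 were. With 1 sample left out it ranged from 2 to 26, in the Xcl1- and Tcf7-led cluster from 0 to 35, in B-like cells from 0 to 8, in CD4 T-like cells from 0 to 2, and in the γδ or natural CD8αα class and monocyte or macrophage-like cells from 0 to 1. In such fits the lone sample is assumed to vary like the other group. With the replicate block 34 members were called in the Cd8b1 cluster, and no other count of members changed. The block raised calls over all genes too. In the Cd8b1 cluster 184 of 8526 genes were then lower and 62 higher, against 68 and 24 in the main fit. Over all kept cells 37 of 14076 were lower and 365 higher, against 0 and 21. The number pairs nothing by the labels. Differences between replicates 1 and 2 were correlated between the diets over genes. The r was -0.01 in the Cd8b1 cluster (5576 genes), -0.33 in the γδ or natural CD8αα class (6179) and 0.11 in the Xcl1- and Tcf7-led cluster (5608). It was not computed over the members alone, of which some, such as Rps27, were higher in samples numbered 2.

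The difference in share over all cells was 0.058 with the stricter cell filter. In the Cd8b1 cluster it was -2.8661 as a median over cells, -1.6547 with classes by own UMIs, -2.8988 with the stricter filter, -1.7288 with seed 2 and -2.2414 with seed 3. In monocyte or macrophage-like cells it was 0.4218 with cells over 2% Malat1 left out.

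None of the 6 named members called in the Cd8b1 cluster changed sign, and the cause of the changes below was not tested. With 1 sample left out, log2 differences ranged from -0.4598 to 0.0316 for Rpl38 and -0.4334 to 0.0215 for Rps21 over all cells. In the γδ or natural CD8αα class they ranged from -0.1337 to 0.2425 for Rpl7l1, -0.1428 to 0.1574 for Rps2 and -0.1761 to 0.2293 for Rps27l. In the Xcl1- and Tcf7-led cluster they ranged from -0.0687 to 0.0688 for Rpl14 and -0.0086 to 0.0362 for Rpl8. They ranged from -0.3078 to 0.0124 for Rpl31 and -0.572 to 0.1124 for Rpl5 in CD4 T-like cells, from -0.3357 to 0.3878 for Rpl35 in B-like cells and from -0.013 to 0.1559 for Rpl3 in pDC-like cells. At resolution 0.5, Rpl7l1 was at -0.0121, Rps2 at -0.0341 and Rps27l at -0.0136 in the γδ or natural CD8αα class. Without the low-count filter, Rps2 was at -0.0037 and Rps27l at -0.0066 there, and Rpl14 at -0.004 in the Xcl1- and Tcf7-led cluster. There Rpl14 was at -0.0098 with doublets kept, and Rpl8 at -0.0011 with the stricter filter. With thinning, Rps27l was at -0.024 in the γδ or natural CD8αα class, Rpl14 at -0.0156 in the Xcl1- and Tcf7-led cluster, Rpl23a at 0.0007 and Rpl31 at 0.0307 in CD4 T-like cells, and Rpl3 at -0.041 in pDC-like cells. With classes by own UMIs, Rpl5 was at 0.1007 in CD4 T-like cells. CD4 T-like cells could not be fitted at resolution 0.5 or with seed 2, and the Xcl1- and Tcf7-led cluster and monocyte or macrophage-like cells have no gate on own UMIs. With 2 samples per diet, small differences cannot be told from sample spread, and the smallest p of an exact test is 0.333.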
